A study of Mus musculus with 4 samples.

Results

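Macrophages given vesicles loaded with a miR-93 mimic were compared with macrophages given vesicles carrying a scrambled control RNA. The comparison uses 2 of the 4 libraries of the series, the miR-93 EV library and the control EV library, and describes every gene measured in them. Both came from bone marrow-derived macrophages, which were grown from marrow of C57BL/6 mice of 6 to 8 weeks over 5 to 7 days in 30% L929-conditioned medium, a source of the growth factor M-CSF. Extracellular vesicles (EVs), which are small membrane-bound packets shed by cells, came from Beas2B, a human lung epithelial line, and stayed on the macrophages for 16 h. The other libraries of the series are miR-17 EV, from macrophages given vesicles with a miR-17 mimic, and unexposed macrophages without vesicles, and they are used here as further points of reference. RNA of 4 biological replicates was pooled before each library was made. Every group is therefore 1 library, the spread between cultures was not measured, and no test between the groups is possible. Ratios compare these libraries, and their 95% exact intervals cover counting error only.

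MicroRNAs are short RNAs that guide Argonaute proteins to messenger RNAs, mostly through pairing of the seed, the bases near their 5′ end, with sites in the 3′ UTR. Paired messengers are usually translated less and degraded faster. The miR-17 family, to which miR-93 and miR-17 belong, is known for limiting inhibitors of the cell cycle, mediators of TGF-β signalling and pro-apoptotic genes. Macrophages take up vesicles readily, and their main tasks are to engulf particles, present antigen and release cytokines.

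The mature sequences are shown because all members of the family share the seed and can pair with the same sites. In the RefSeq table of mouse miRNAs (GRCm38.p6), 7 mature miRNAs carried the seed of miR-93-5p at bases 2 to 8, given in capitals. The sequence of miR-93-5p lies at chr5:138165574-138165596 on the minus strand and that of miR-17-5p at chr14:115043684-115043706 on the plus strand. miR-106b-5p comes from the same locus as miR-93-5p, and miR-20a-5p from that of miR-17-5p.
miR-93-5p: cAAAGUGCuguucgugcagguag
miR-17-5p: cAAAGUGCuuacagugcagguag
miR-106b-5p: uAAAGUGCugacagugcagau
miR-20a-5p: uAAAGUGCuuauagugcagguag

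Reads of the miRNA precursors do not tell how much mimic reached the cells, since a mimic is a mature RNA. Mir93 had 2, 6, 3 and 2 reads in miR-93 EV, miR-17 EV, control EV and unexposed. Its neighbours Mir25 and Mir106b had at most 6 reads in a library, and Mir17 at most 1. Mcm7, the replication helicase gene whose intron holds Mir93, had 536 normalized counts in miR-93 EV, against 549 in control EV. Mir17hg, the host of Mir17, had 42.5 and 39.8. Both host genes were level between the libraries within counting error, with ratios of 0.976 (95% interval 0.863 to 1.10) and 1.07 (0.673 to 1.71).

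Reads in genes numbered 22247527 in miR-93 EV, against 17815250 in control EV. Median-of-ratios size factors, which set the typical gene level between libraries, were 1.10 and 0.854. The median gene had 98.7 aligned bases per read in miR-93 EV, 96.4 in miR-17 EV, 114 in control EV and 103 in unexposed, so control EV had the longest alignments. Macrophage markers were present in both libraries. All 14 looked at were measured, 3 of them higher and 11 lower in miR-93 EV. Their summed level was 663069.7 normalized counts in miR-93 EV, against 788969.8 in control EV, and most of it came from Lyz2. Lyz2 (lysozyme) had 491453 normalized counts in miR-93 EV, against 596249 in control EV. Csf1r, the receptor for M-CSF, had 25276 and 31803, and Cd68 had 19707 and 19446. Elane and Retnlg (neutrophil), Cd209a and Siglech (dendritic cell), Cd3e and Ncr1 (T and NK cell), Mcpt4, Tpsb2 and Tpsab1 (mast cell), and Krt8 and Sftpc (epithelium) had 0 reads in both libraries. A count of 0 allows up to 3 reads, which is 2.72 normalized counts in miR-93 EV, against 3.51 in control EV.

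The libraries were alike for most genes. Of 15361 genes with a mean of at least 20 normalized counts, 90.7% lay within 1.5-fold between miR-93 EV and control EV, and the median log2 ratio was −0.02. A gene was called higher or lower where the ratio was at least 2-fold and its interval excluded 1. By that rule 153 genes (0.996% of those measured) were higher in miR-93 EV and 71 (0.462%) were lower. By any amount, 46.6% of genes were higher. Scaling by the upper quartile of counts moved the median log2 ratio by 0.11 and put that share at 63.3%. The called genes were mostly of low counts, with 126 of the higher and 51 of the lower ones under a mean of 100. Protein-coding genes made up 93 of the higher and 28 of the lower genes, out of 12580 measured. Pseudogenes made up 40 and 26, out of 1666 measured, and small RNAs 5 and 8, out of 109. In both directions, pseudogenes and small RNAs were thus called more often than protein-coding genes, relative to the number measured. Pseudogenes took 8.23% of reads in miR-93 EV (95% exact binomial interval 8.22% to 8.25%) and 9.05% in control EV (9.03% to 9.06%). Small RNA loci took 0.714% in miR-93 EV, against 0.570% in control EV.

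**Figure D1:**
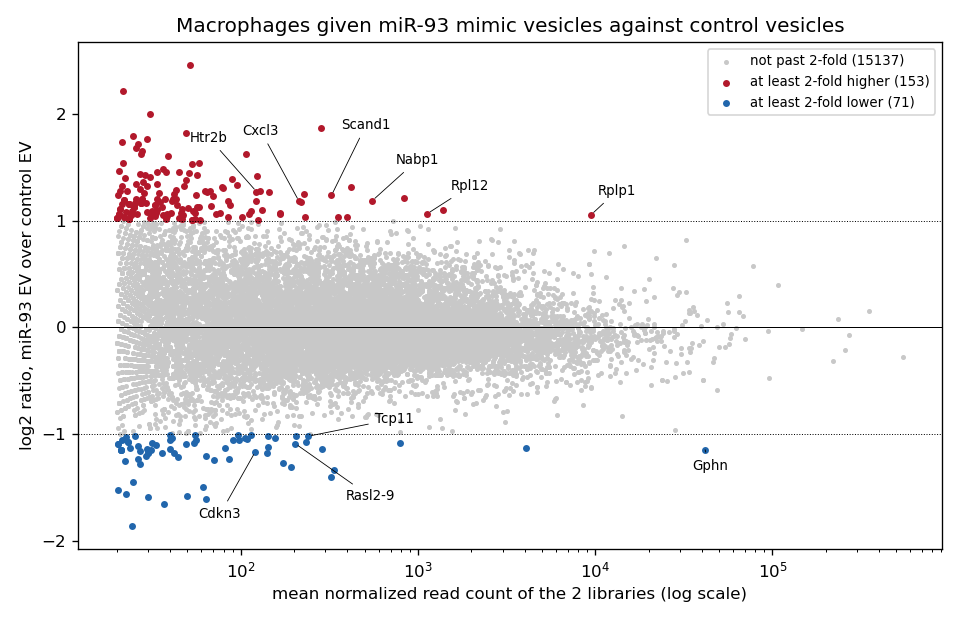
Each point is 1 of the 15361 genes measured, with the mean normalized read count of both libraries on a log x axis and the log2 ratio of miR-93 EV over control EV on the y axis. Dotted lines mark 2-fold. Most of the 153 higher (red) and 71 lower (blue) genes lie under a mean of 100, and Rplp1 and Gphn stand out at high counts.

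Among the higher genes with a mean of at least 100, 11 were neither typed as pseudogenes or small RNAs nor named as gene models. The list mixed a receptor, a chemokine, enzymes, DNA-binding proteins and ribosomal proteins. Htr2b, a serotonin receptor (chromosome 1, 86099026 to 86111970), had 174 normalized counts in miR-93 EV, 189.9 in miR-17 EV, 71.4 in control EV and 65.3 in unexposed. Both mimic libraries were high and both others low. Its ratio was 2.43 (1.82 to 3.30), and the gene lies within the span of Psmd1, so reads of the pair could have been shared. Nabp1, a single-strand DNA-binding protein of the damage response (chromosome 1, 51469498 to 51478399), had 769 normalized counts in miR-93 EV, 766 in miR-17 EV, 337 in control EV and 559.6 in unexposed. Here the control EV library was the low one, and the ratio was 2.28 (1.99 to 2.62).

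Cxcl3, a chemokine that attracts neutrophils (chromosome 5, 90786103 to 90788086), had 296 normalized counts in miR-93 EV, 273 in miR-17 EV, 130.0 in control EV and 216 in unexposed. Its ratio was 2.28 (1.83 to 2.85), and unexposed macrophages lay between the 2 vesicle groups compared. Dio2, the deiodinase that activates thyroid hormone (chromosome 12, 90724554 to 90738438), had 309 normalized counts in miR-93 EV, 284 in miR-17 EV, 149.9 in control EV and 252 in unexposed, a ratio of 2.06 (1.68 to 2.54). Lipn, a member of the acid lipase family (chromosome 19, 34067358 to 34084918), had 138 normalized counts in miR-93 EV, 111 in miR-17 EV, 66.8 in control EV and 98.0 in unexposed, a ratio of 2.06 (1.51 to 2.85). For both, control EV was again lowest of the 4 libraries, and each overlaps an unnamed gene model.

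Rplp1, a protein of the ribosomal stalk (chromosome 9, 61913284 to 61914538), was the most abundant of the higher genes, with 12826 normalized counts in miR-93 EV, 11659 in miR-17 EV, 6172 in control EV and 14536 in unexposed. Its ratio was 2.08 (2.01 to 2.15), and the highest level was in unexposed cells. Rpl12, a protein of the large ribosomal subunit (chromosome 2, 32961559 to 32964496), had 1529.9 normalized counts in miR-93 EV, 1674 in miR-17 EV, 731 in control EV and 1285 in unexposed, a ratio of 2.09 (1.91 to 2.30), and overlaps Lrsam1. Scand1, a SCAN domain gene (chromosome 2, 156311847 to 156312704), had a ratio of 2.36 (1.98 to 2.83), with 456 normalized counts in miR-93 EV, against 193 in control EV. It overlaps 4921517L17Rik. Ubxn2b, a cofactor of the p97 ATPase, had 150.3 and 71.4. The zinc finger gene Zfp958 had 156 and 72.6, and Rpl21-ps6, which the table types as protein-coding although it is named as a pseudogene, had 179 and 83.2. Their ratios were 2.10 (1.56 to 2.87), 2.14 (1.60 to 2.92) and 2.16 (1.64 to 2.87).

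Of the lower genes, 4 met the same conditions. Cdkn3, a phosphatase of cyclin-dependent kinases (chromosome 14, 46760541 to 46771525), had 74.2 normalized counts in miR-93 EV, 83.4 in miR-17 EV, 167 in control EV and 86.4 in unexposed. The control EV library was high and the other 3 were close together, and the ratio was 0.443 (0.334 to 0.586). Gphn, which encodes the scaffold protein gephyrin (chromosome 12, 78226655 to 78684767), had 25972 normalized counts in miR-93 EV, 27591 in miR-17 EV, 57458 in control EV and 30686 in unexposed. Its ratio of 0.452 (0.445 to 0.459) was not present in the log2 values that the authors deposited, which differed by −0.03 between miR-93 EV and control EV. Rasl2-9, a relative of the nuclear transport GTPase Ran (chromosome 7, 5124945 to 5125950), had 129 normalized counts in miR-93 EV, 114 in miR-17 EV, 276 in control EV and 153 in unexposed, a ratio of 0.468 (0.378 to 0.579). Tcp11, best known from testis (chromosome 17, 28066747 to 28080639), had 158 normalized counts in miR-93 EV, 174 in miR-17 EV, 322 in control EV and 220.2 in unexposed, a ratio of 0.492 (0.405 to 0.597). It overlaps 4930526A20Rik, and in the authors' deposited values Tcp11 differed by 0.00. The authors' value was 0 in both libraries for 533 of the 15361 genes measured, so a difference of 0.00 need not be a measured one.

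In 10 of these 11 higher genes control EV was the lowest of the 4 libraries, and in 4 of the 4 lower genes it was the highest. The same held for 144 of the 153 called higher and 68 of the 71 called lower genes. The ratio that chose these genes has control EV in it, so such counts run high by construction. Over all genes measured, miR-93 EV was the highest library in 21.1% and the lowest in 23.2%, whereas control EV was the highest in 36.0% and the lowest in 31.6%. A difference of the single control EV library and an effect of the mimic cannot be told apart in this comparison.

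**Figure D2:**
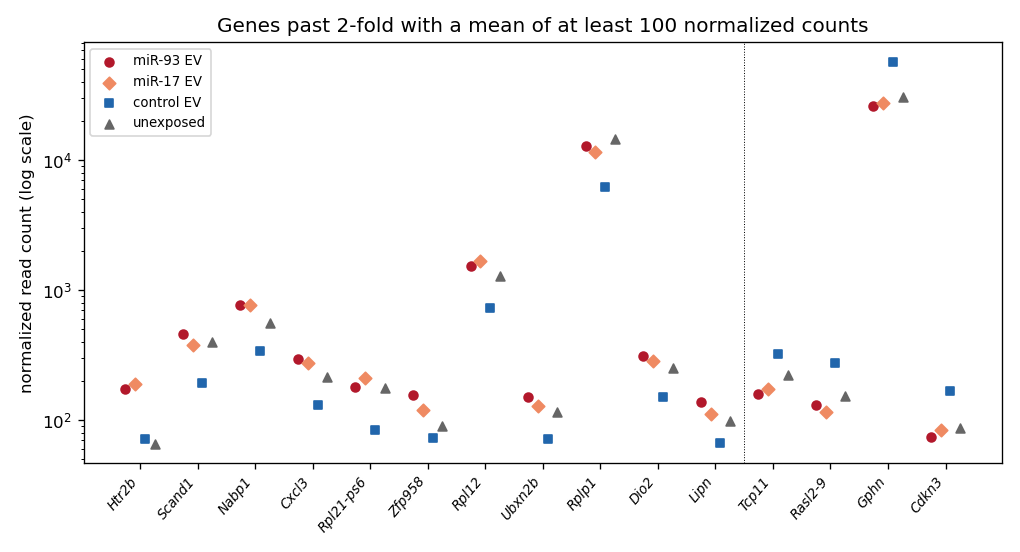
Normalized read counts on a log y axis in miR-93 EV (circles), miR-17 EV (diamonds), control EV (squares) and unexposed macrophages (triangles), 1 library each, for the named genes past 2-fold with a mean of at least 100. Genes left of the dotted line were higher and genes right of it lower in miR-93 EV than in control EV, and control EV is the lowest library of every gene on the left but Htr2b and the highest of every gene on the right.

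Among the 5 genes in each direction with the largest differences in normalized counts, Gphn was past 2-fold and the others were not. Fth1 and Ftl1, the ferritin subunits that store iron, had 370667 and 122350.2 normalized counts in miR-93 EV, against 333694 and 93202 in control EV. Cd36, a scavenger receptor for fatty acids and oxidized lipoprotein, had 41344 normalized counts in miR-93 EV, 39140.3 in miR-17 EV, 23394 in control EV and 32233 in unexposed, a ratio of 1.77 (1.74 to 1.80). It was the highest ratio among these abundant genes. Ctsd, the lysosomal protease cathepsin D, and Prdx1, a peroxidase, had ratios of 1.06 and 1.22. In the other direction, Lyz2 had 491453 normalized counts in miR-93 EV, against 596249 in control EV, and Ctsb, cathepsin B, had 237936 and 275742. Lars2, the mitochondrial leucyl-tRNA synthetase, had a ratio of 0.720 (0.714 to 0.727). Cdk8, a kinase of the Mediator complex, had a ratio of 0.515 (0.506 to 0.524), but was higher by 0.29 on the log2 scale in the authors' deposited values.

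Genes were also read by function, in lists with 5 or more members that reached a mean of 20 normalized counts. For single members of a list a 1.5-fold ratio with an interval that excludes 1 was used, which 5.03% of all genes reached upwards and 2.65% downwards. List medians just under 0 turned positive with upper quartile scaling, which is stated beside those medians. Cytosolic ribosomal proteins, the structural parts of the ribosome, leaned higher, with 67 of 83 higher by any amount and a median log2 ratio of 0.21. Of these, 9 were at least 1.5-fold higher and 0 at least 1.5-fold lower. Besides Rplp1 and Rpl12, Rpl36 had 446 normalized counts in miR-93 EV, against 260.0 in control EV, and Rps14 had 1903 and 1119.6. Towards the other end, Rpl14 had a log2 ratio of −0.49. Ribosomal protein genes have near-identical pseudogenes, whose share of reads differed between the libraries as given above, and how reads were divided among the copies was not tested. Translation initiation and elongation factors had a median of 0.15, with 37 of 56 higher, whereas mitochondrial ribosomal proteins were even, with 37 of 76 higher and a median of −0.02 (0.09 with upper quartile scaling).

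Genes of the antioxidant response controlled by NRF2, the transcription factor that answers oxidative stress, also leaned higher. Of 34 members, 31 were higher by any amount, with a median of 0.21, and 1 passed 1.5-fold. That was Slc7a11, the cystine importer that feeds glutathione synthesis, with 5489.5 normalized counts in miR-93 EV, 5445 in miR-17 EV, 3395 in control EV and 4555 in unexposed, a ratio of 1.62 (1.55 to 1.69). Gclc, the limiting enzyme of glutathione synthesis, had 4216 normalized counts in miR-93 EV, against 2933 in control EV. Gpx4, the glutathione peroxidase that repairs oxidized lipids, had 855 and 570.4. Nfe2l2, which encodes NRF2 itself, was at a log2 ratio of −0.19, below 0 like Tkt (−0.22), an enzyme of the pentose phosphate pathway. Iron handling genes had a median of 0.17, led by the siderophore binder Lcn2 (0.76) and the transferrin receptor Tfrc (0.73), with Hfe, which restrains iron uptake, at −0.62.

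Inflammatory and tissue-remodelling genes were mixed. Of 15 matrix metalloproteinases, related proteases and their inhibitors, 12 were higher, with a median of 0.25. Mmp13, a collagenase, had 387 normalized counts in miR-93 EV, against 237 in control EV, and Mmp9, a gelatinase, had 349 and 221. The inhibitor Timp2 was at −0.36. Of 17 markers of classical activation, 3 were at least 1.5-fold higher and 0 lower. Those were Cd38, an NAD-consuming enzyme (0.73), the prostaglandin synthase Ptgs2 (0.73) and the nitric oxide synthase Nos2 (0.62), whereas Cd80 and Gbp5 were at −0.27 and −0.42. Of 15 markers of alternative activation, 11 were lower, but none passed 1.5-fold, and upper quartile scaling turned that list's median to 0.04, against −0.07.

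Among chemokines the members went apart. Cxcl3 and the monocyte attractant Ccl7 were higher, with log2 ratios of 1.18 and 0.73, and Cxcl1 and Ccl12 were at −0.48 and −0.49, with a list median of −0.06 (0.05 with upper quartile scaling). Toll-like receptors and their partners differed among themselves too, where Tlr3, the sensor of double-stranded RNA, was at 0.81 and Tlr4, the endotoxin receptor, at 0.56, but Tlr2 was at −0.52 and the co-receptor Cd14 at −0.56. Acute phase and granule genes had a median of 0.22 over 13 members, with Saa3, an acute phase apolipoprotein, at 14788 normalized counts in miR-93 EV, against 9119.8 in control EV. Of the 12 neutrophil markers, 3 were measured (S100a8, Lcn2 and Mmp8) and all were higher. The summed level of the list was 3296 in miR-93 EV, against 2215 in control EV and 3542 in unexposed. Mpo and Camp, below the minimum count, had 3.62 and 1.81 normalized counts in miR-93 EV, against 8.20 and 7.03 in control EV. The defining neutrophil markers Elane and Retnlg were at 0 in both libraries and Ly6g had 0 in miR-93 EV, against 1 in control EV. Macrophages can also make S100a8, Lcn2 and Mmp8, and the part of neutrophils in these values was not tested.

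Several genes of the DNA damage response and p53 pathway were higher although the list as a whole was even. Its median over 35 members was 0.02, and 6 were at least 1.5-fold higher (17.1%) with 0 lower. Besides Nabp1, they were Trp53inp1, a p53-induced stress protein (0.90), Polk, a translesion polymerase (0.81), cyclin G1, Ccng1 (0.70), the death receptor Eda2r (0.69) and the checkpoint kinase Atr (0.63). The classical p53 target Cdkn1a had 7917 normalized counts in miR-93 EV, against 7836 in control EV, a ratio of 1.01 (0.979 to 1.04). After correction for GC content Atr and Eda2r were at 0.28 and 0.34.

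C-type lectins, receptors that bind sugars on microbes and cells, included a group of higher members. Of 20 measured, 5 were at least 1.5-fold higher and 0 lower. Cd209g was called at 2-fold, with 42.5 normalized counts in miR-93 EV, 53.2 in miR-17 EV, 15.2 in control EV and 82.2 in unexposed, a ratio of 2.79 (1.49 to 5.63). Its neighbour in name Cd209f had 78.8 normalized counts in miR-93 EV, 96.7 in miR-17 EV, 42.2 in control EV and 175 in unexposed, so that for both genes unexposed cells were highest. Clec1b was at 0.98 and Clec4e, the receptor for mycobacterial cord factor, at 0.66, against −0.45 for Clec10a, a galactose lectin of alternatively activated cells. The list median of 0.07 turned to −0.08 after correction for GC content, and the log2 ratio of Cd209g was then 1.47.

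Zinc finger genes of the Zfp series, most of which encode DNA-binding repressors, gave 10 genes called higher at 2-fold and 0 called lower among 295 measured, or 3.39% higher, beside 0.996% of all genes. They were Zfp825, Zfp780b, Zfp420, Zfp119a, Zfp51, Zfp442, Zfp958, Zfp932, Zfp708 and Zfp677, of which 4 stayed past 2-fold after correction for GC content (Zfp825, Zfp780b, Zfp420 and Zfp119a). Genes of low counts were called more often. In deciles 1 (lowest), 2 and 3 by mean count, 81 of 1537, 40 of 1536 and 16 of 1536 genes were called higher. The Zfp list had a median mean of 134 normalized counts, against 384 over all genes measured, so 0.996% is not the share among genes of like counts. Zfp780b had 79.7 normalized counts in miR-93 EV, 46.1 in miR-17 EV, 26.9 in control EV and 50.6 in unexposed, and Zfp825 had 40.7 normalized counts in miR-93 EV, 16.0 in miR-17 EV, 11.7 in control EV and 21.1 in unexposed. For both, miR-93 EV was the highest of the 4 libraries, and miR-17 EV did not share that level. Counts were low, and the ratio of Zfp825 had an interval of 1.73 to 7.74. Other single members called at 2-fold were Rab26, a GTPase of secretory granules (1.41), which lies over Traf7, and Snora28 (1.04), which lies within Eif5 and was at −0.45 in the authors' deposited values. SCARNA7, a small RNA of the Cajal body that lies within Kpna4, had 30.8 normalized counts in miR-93 EV, against 96.0 in control EV.

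Genes of cell division leaned lower in miR-93 EV. Of 43 mitosis genes, 30 were lower by any amount, with a median of −0.21, and 7 were at least 1.5-fold lower with 0 higher. These were Cdkn3, the kinase Nek2 (−0.77), the kinesins Kif2c (−0.69) and Kif20a (−0.65), the mitotic kinase Plk1 (−0.64), the checkpoint kinase Bub1b (−0.64) and cyclin B2, Ccnb2 (−0.64). Ccnb2 had 542 normalized counts in miR-93 EV, 555 in miR-17 EV, 844 in control EV and 533 in unexposed. The control EV library was the high one. Mki67, the common marker of cycling cells, had 2353 and 2301 in miR-93 EV and control EV, and Bub1 and Ttk were at 0.33 and 0.37. The list median was −0.23 for miR-17 EV over control EV, 0.08 for miR-93 EV over unexposed and 0.25 for control EV over unexposed, comparisons that share libraries with this one.

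DNA replication genes had ratios below 1 in 43 of 50 members, with a median of −0.24, but only 2 passed 1.5-fold. Exo1, an exonuclease of mismatch repair, had 114 normalized counts in miR-93 EV, 104 in miR-17 EV, 212 in control EV and 155 in unexposed, a ratio of 0.538 (0.425 to 0.679). Pole, the catalytic subunit of polymerase epsilon, had 482 in miR-93 EV, against 740.2 in control EV. The sliding clamp Pcna was at −0.42, and Ccne2, a cyclin of S phase entry, at 0.39. Replication-dependent histones did not share the lean, with 14 of 25 lower and a median of −0.03 (0.08 with upper quartile scaling). In bulk RNA, fewer cells of a kind and less RNA per cell cannot be told apart.

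MHC class II genes, which present engulfed antigen to T cells, were lower in 9 of 12 members, with a median of −0.28. Of these, 3 were at least 1.5-fold lower. H2-Aa, the alpha chain of the I-A molecule, had 57.9 normalized counts in miR-93 EV, 55.9 in miR-17 EV, 122 in control EV and 109 in unexposed, and was called lower with a ratio of 0.476 (0.343 to 0.656). Both mimic libraries were low and both others high for H2-Aa. Its partner chain H2-Ab1 had 119.5 in miR-93 EV, against 146 in control EV, a ratio of 0.816 (0.634 to 1.05) whose interval includes 1. H2-Eb1 was at −0.70, and Cd74, the invariant chain, had 541 and 813. The costimulatory ligand Cd86 was at 0.20. Set against unexposed cells, some list medians of the miR-93 EV library were nearer to 0. They were −0.13 for MHC class II, −0.07 for DNA replication, 0.11 for ribosomal proteins and 0.04 for NRF2 genes. Others were further from 0, such as −0.14 for alternative activation markers and −0.16 for complement genes. Over control EV those 2 medians were −0.07 and −0.08.

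Markers of the cell types rich in these genes were looked at beside them. Of 10 dendritic cell markers 3 were measured, 1 higher (Fscn1, 0.85) and 2 lower (Itgae, −0.64, and Batf3, −0.22). Their summed level was 413 normalized counts in miR-93 EV, against 493 in control EV, with Cd209a and Siglech at 0 in both. Of 9 B cell markers 4 were measured and 3 lower, and the sum was 1369 in miR-93 EV, against 1675 in control EV. Their part in the MHC class II values was not tested. Other lists were small in sum or held genes that macrophages also use, such as Il7r (0.57) and Cd4 (−0.31) of the T and NK cell list, Car1 (0.61) and Epor (0.81) of the erythroid list, Acp5 (0.69) of the osteoclast list and Pf4 (0.20) of the megakaryocyte list. The T and NK cell, erythroid, osteoclast and megakaryocyte lists summed to 2779, 449.9, 2429.7 and 3957 normalized counts in miR-93 EV, against 2048, 285, 1749.7 and 3589.6 in control EV. The mast cell, fibroblast and endothelial lists summed to 127, 142 and 1585 in miR-93 EV, against 99.5, 109 and 1571 in control EV. Epithelial markers, the type of the vesicle donor line, summed to 19.0 in miR-93 EV, against 17.6 in control EV. Cdh1 of that list had 9.05 and 9.37. The donor line is human and these are counts of mouse genes, so they do not measure donor RNA.

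Fc receptors and their ITAM adaptors, which bind antibody-coated particles, were lower in 20 of 24 members, with a median of −0.19. Fcgr2b, the inhibitory Fc receptor, had 1261 normalized counts in miR-93 EV, 1283 in miR-17 EV, 2041 in control EV and 1498 in unexposed, a ratio of 0.618 (0.575 to 0.663). Fcgrt, the neonatal Fc receptor, had 722 in miR-93 EV, against 1097 in control EV, whereas Treml4 was at 0.69. Of 15 chemoattractant receptors 11 were lower, with the sphingosine phosphate receptor S1pr1 at −0.70 and the complement receptor C5ar1 at −0.57. Scavenger receptors were even in number, 12 higher and 12 lower, with Cd36 and Msr1 (0.56) on top and Stab1 (−0.51) at the bottom. Macrophage lineage regulators had a median of −0.10 (0.02 with upper quartile scaling), with Csf1r at −0.33 and Zeb2 at 0.51.

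Metabolic lists showed smaller shifts. Cholesterol synthesis genes under SREBP2 were lower in 18 of 25 members, with a median of −0.15 and no member past 1.5-fold. Pmvk and Cyp51, both enzymes of the pathway, were lowest at −0.54 and −0.54. LXR targets of lipid efflux had a median of −0.11, with the lipid transporter Pltp at −0.43, Apoe at −0.37 and the receptor gene Nr1h3 at 0.34. Lysosomal hydrolases were lower in 31 of 41 members, with a median of −0.11, and Acp5, the tartrate-resistant acid phosphatase, was the highest at 0.69. The medians of both lists turned to 0.0065 (LXR) and 0.002 (lysosomal) with upper quartile scaling. Lysosomal hydrolases had a median mean of 4973 normalized counts. All genes in the decile of highest mean count had a median of −0.08, with 33.2% higher. Nuclear oxidative phosphorylation subunits, glycolysis and hypoxia genes, and V-ATPase subunits had medians of 0.02, −0.02 and −0.01, close to the −0.02 of all genes, and upper quartile scaling turned those of glycolysis and V-ATPase to 0.09 and 0.11. Angptl4, a secreted lipase inhibitor, had 320.5 normalized counts in miR-93 EV, 326 in miR-17 EV, 439 in control EV and 136 in unexposed, and unexposed cells were lowest.

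Other lists lay near the median of all genes. Interferon-stimulated genes had a median of 0.01, with 4 of 58 at least 1.5-fold higher, of which the DNA sensors Ifi204 and Ifi205 led at 0.76 and 0.71. Medians were −0.05 for MHC class I and the immunoproteasome, −0.02 for cytokines, −0.09 for NF-κB subunits and inhibitors, 0.02 for immediate early genes, 0.05 for the inflammasome and 0.01 for the Bcl2 family, of which the first 3 turned to 0.07, 0.09 and 0.02 with upper quartile scaling. The inflammasome median turned to −0.10 after GC correction, and that of immediate early genes to −0.05 in the authors' deposited values. Heat shock chaperones had 3 of 22 members at least 1.5-fold higher, led by Hsp90aa1, an inducible HSP90, with 3792 normalized counts in miR-93 EV, 3749 in miR-17 EV, 2002 in control EV and 2999 in unexposed. The actin list held Crip1, a LIM domain protein, with 1335 normalized counts in miR-93 EV, 1359 in miR-17 EV, 2351 in control EV and 1114 in unexposed, a ratio of 0.568 (0.531 to 0.608), as its lowest member, and Tmsb10, which binds actin monomers, at 0.69 near the top. The genes that load and carry out miRNA silencing had a median of −0.04 (0.07 with upper quartile scaling) over 30 members, with Argonaute 4 (listed as Eif2c4) lowest at −0.41 and the decapping enzyme Dcp2 highest at 0.49.

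**Figure D3:**
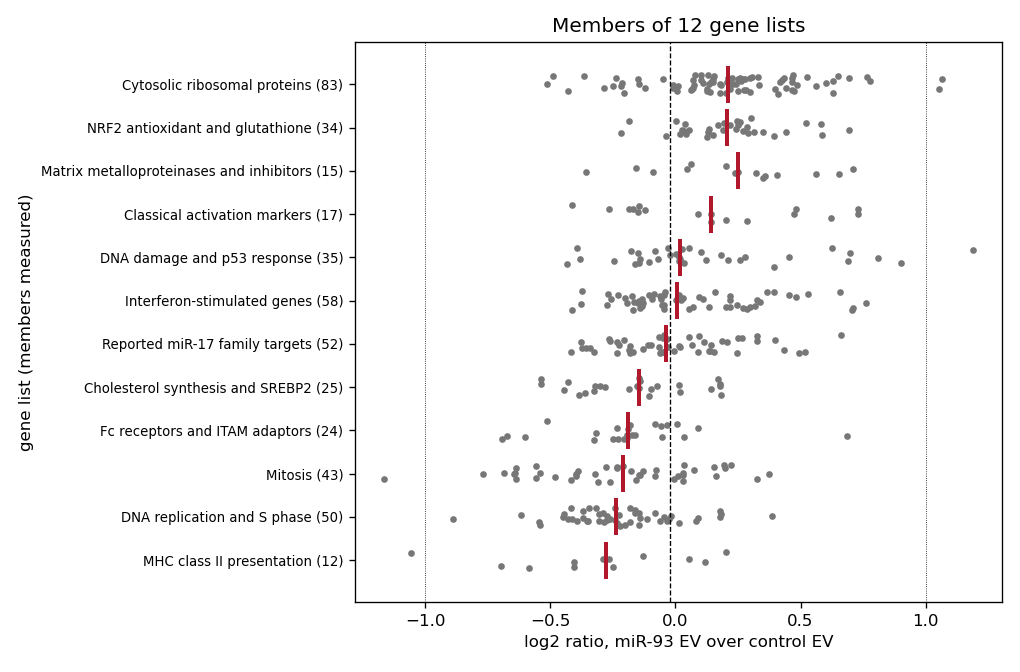
Each point is 1 measured member of a gene list at its log2 ratio of miR-93 EV over control EV (x axis), the red bar is the list median, the dashed line the median of all genes and the dotted lines 2-fold. Ribosomal protein and NRF2 genes have medians of 0.21 and 0.21, and mitosis, DNA replication and MHC class II genes have medians of −0.21, −0.24 and −0.28.

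Genes with a match to the seed in their 3′ UTR are the ones that miRNAs of the family are known to act on most directly. The complement of the seed is GCACTTT, and it was searched on the sense strand of the 3′ UTR of each gene, taking the longest one annotated. It is called an 8mer site where an A follows, and every 8mer site contains the 7-base match. Of 12079 measured protein-coding genes with a 3′ UTR, 1771 (14.7%) held at least 1 match. Their median log2 ratio was −0.0088, against −0.023 in the 10308 genes without one. Lower by any amount were 51.4% of genes with and 53.4% of genes without a match, and lower by at least 1.5-fold were 1.24% and 1.55%. The difference of the medians, with minus without a match, was 0.014 on the log2 scale, and −0.0064 after correction for GC content.

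The number and kind of sites were also read. Genes with an 8mer had a median of 0.0021 (550 genes), and genes whose best match was the 7-base one had −0.017 (1221 genes). With 2 sites the median was 0.045 over 234 genes, and with 3 or more it was −0.0091 over 41. The genes without GCACTTT were not all free of shorter or shifted matches. In 881 of them the best match was CACTTTA, with a median of 0.043 and 43.6% lower. In 2398 it was CACTTT alone, with −0.0087 and 51.0% lower. The 7029 genes with none of these matches had −0.034 and 55.5% lower. Long 3′ UTRs hold more sites and are poorer in GC. Within the shortest tertile of 3′ UTRs, genes with a site had a median of −0.04 and genes without one −0.035. In the middle tertile the medians were −0.049 and −0.034, and in the longest tertile 0.029 and 0.01. Shares that were lower by any amount were 64.7% and 55.7% in the shortest tertile, 59.5% and 54.8% in the middle one and 46.6% and 48.6% in the longest. By GC content of the gene, 28.7% of genes with and 32.9% without a site were lower in the lowest tertile, 65.1% and 62.6% in the middle one, and 72.5% and 63.3% in the highest. The direction of the difference was not the same across these strata, either before GC correction or in the corrected medians that follow. With GC-corrected ratios, medians with and without a site were −0.064 and −0.020 in the shortest tertile of 3′ UTRs. They were −0.041 and −0.028 in the middle one and −0.021 and −0.022 in the longest. By GC content of the gene the corrected medians were −0.014 and −0.028 in the lowest tertile, −0.037 and −0.022 in the middle one, and −0.041 and −0.020 in the highest. After correction for GC content the medians of genes with 1, 2 and 3 or more sites were −0.033, −0.012 and −0.021, against −0.024 with 0 sites.

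**Figure D4:**
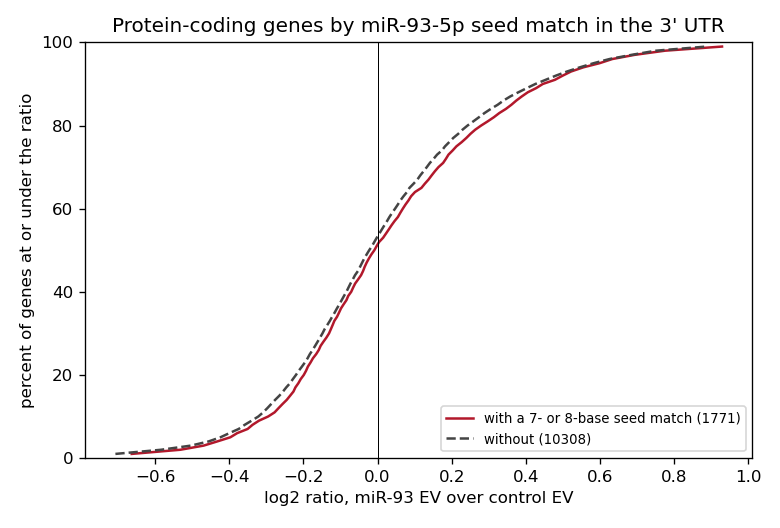
Cumulative share of protein-coding genes (y axis, percent) at or under each log2 ratio of miR-93 EV over control EV (x axis). The solid curve is 1771 genes with a GCACTTT match and the dashed curve 10308 genes without one. The dashed genes include 881 with CACTTTA and 2398 with only CACTTT as their best match. The curve of genes with a match lies slightly right of the other, towards higher ratios.

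Sites of single genes are shown so that the genes with the lowest and highest ratios can be read beside their matches. They come from the GENCODE M21 transcripts, with the 7-base match in capitals and coordinates on mm10. Of genes with 2 or more matches and a mean of at least 100, Slc41a1, a magnesium transporter, and Zhx3, a transcription factor, had the lowest ratios with Tmcc1 and Nbea. Ubxn2b and Mysm1, a histone H2A deubiquitinase, had the highest with Mfap3l and Suco. Ncoa3, a nuclear receptor coactivator, had the lowest ratio of the reported targets with a mean of at least 100, and Zfpm2, a cofactor of GATA factors with a lower mean, was the reported target past 1.5-fold. The first site of Slc41a1 is at chr1:131846753-131846774 (plus strand) and the second at chr1:131847162-131847183. Those of Ubxn2b are at chr4:6216646-6216667 and chr4:6218210-6218231 (plus strand), and those of Mysm1 at chr4:94945765-94945786 and chr4:94944407-94944428 (minus strand). Those of Ncoa3 are at chr2:166070717-166070738 and chr2:166071290-166071311, and that of Zfpm2 at chr15:41104095-41104116 (both plus strand).
Slc41a1 first site: tcccccacccctctGCACTTTc
Slc41a1 second site: tcccacacatgcacGCACTTTt
Ubxn2b first site: agatgtgataaacaGCACTTTa
Ubxn2b second site: accccacaagacaaGCACTTTa
Mysm1 first site: tggcttgttaggctGCACTTTt
Mysm1 second site: gttttaggcaccaaGCACTTTa
Ncoa3 first site: atgtgcagccaagcGCACTTTa
Ncoa3 second site: taccagagaactacGCACTTTg
Zfpm2 site: atcaggctccaattGCACTTTa

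Slc41a1 had 137 normalized counts in miR-93 EV, 182 in miR-17 EV, 196 in control EV and 185 in unexposed, a ratio of 0.699 (0.557 to 0.876). The miR-93 EV library was the low one, and the other 3 were close. Ubxn2b, with an A after both of its matches and so 2 8mer sites, had 150.3 normalized counts in miR-93 EV, 128 in miR-17 EV, 71.4 in control EV and 116 in unexposed. Mysm1 had 384 normalized counts in miR-93 EV, 401 in miR-17 EV, 218 in control EV and 346 in unexposed, a ratio of 1.76 (1.48 to 2.10). For these 2 genes control EV was the lowest library. Zhx3, Tmcc1 and Nbea had log2 ratios of −0.43, −0.43 and −0.42, and Suco and Mfap3l of 0.67 and 0.75.

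Genes listed as reported targets of the family had a median close to that of all genes. Of 57 genes on the list, 52 were measured, 29 of them lower and 23 higher, with a median of −0.04 that total read and upper quartile scaling moved to 0.01 and 0.07. None passed 1.5-fold downwards and 1, Zfpm2, passed it upwards. Over the 44 members with a match the median was −0.04. Ncoa3 had 3662 normalized counts in miR-93 EV, 3774 in miR-17 EV, 4763 in control EV and 4472 in unexposed, with a ratio of 0.769 (0.736 to 0.803). The phosphatase Dusp2 was at 46.2 in miR-93 EV, against 62.1 in control EV, with an interval of the ratio that includes 1. Among regulators of TGF-β signalling, the receptor Tgfbr2 was at −0.27, the decoy receptor Bambi at 0.52 and Smad4 at −0.17. Among cell cycle and survival regulators, E2f1 was at −0.06, Ccnd1 at −0.23, Rbl2 at −0.13 and the pro-apoptotic Bcl2l11 at −0.05. Stat3, a cytokine signal transducer with 2 matches, was at −0.23, and Hif1a, the hypoxia factor, at 0.40. For Zfpm2 the counts were 91.4 in miR-93 EV, against 57.4 in control EV.

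The ratio also varied with the GC content of the gene. In the decile of genes with the lowest GC content, up to 39.7%, the median log2 ratio was 0.25, and 76.6% of genes were higher. It was −0.12 in the decile from 46.1% to 47.8% and −0.02 in the highest decile. Gene span mattered less, with medians of −0.06 in the shortest and 0.06 in the longest decile. By mean count, the median fell from 0.13 in the lowest decile (59.2% higher) to −0.08 in the highest (33.2% higher), which began at 2580 normalized counts. The lysosomal, Fc receptor and NRF2 lists had median means of 4973, 5894 and 6620 in that range, with median log2 ratios of −0.11, −0.19 and 0.21. Log2 ratios were also corrected with a running median over GC content. List medians after this correction were 0.26 for ribosomal proteins, 0.22 for NRF2 genes, 0.27 for metalloproteinases, −0.25 for mitosis, −0.19 for DNA replication, −0.23 for MHC class II and −0.13 for Fc receptors. Of the 15 named genes past 2-fold with a mean of at least 100, 9 stayed past 2-fold, and 7 of the 15 were past 2-fold in the same direction in the authors' deposited log2 values, where Htr2b, Cxcl3 and Scand1 were at 0.93, 0.95 and 0.78. After GC correction Nabp1, Zfp958, Ubxn2b, Dio2, Lipn and Tcp11 had corrected log2 ratios of 0.92, 0.75, 0.91, 0.97, 0.77 and −0.96. Cd36 was at 0.48 after correction, against 0.82 before.

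**Figure D5:**
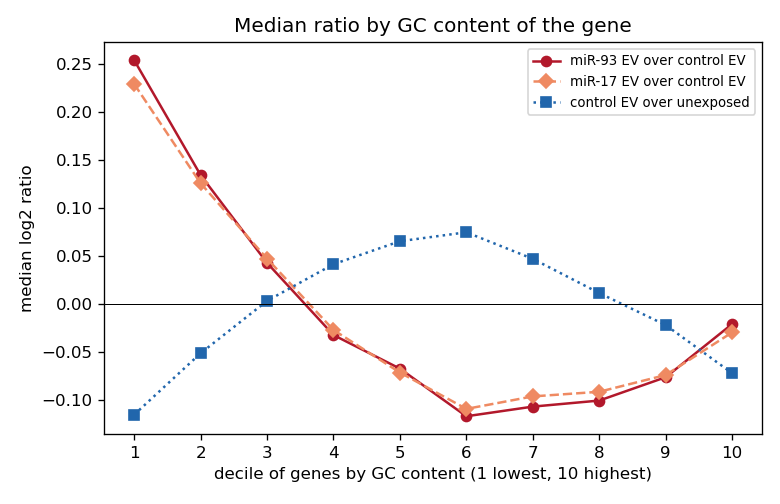
Median log2 ratio (y axis) of the genes in each decile by GC content (x axis, 1 lowest and 10 highest) for miR-93 EV over control EV (circles), miR-17 EV over control EV (diamonds) and control EV over unexposed (squares). All 3 curves share the control EV library, and that of miR-93 EV runs between 0.25 and −0.12.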

How the data were processed

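Raw read counts per gene, average coverage per base, and GC content in percent were used as the authors deposited them for all 4 libraries. The gene length in the table is the whole gene span, so counts can include introns. Total RNA was sequenced with an Ion Torrent library kit, per the labels' protocols. The submitters' processing notes name mm10 and DESeq. Which aligner, annotation and strand setting were used is not given in the sources used here, so reads of overlapping genes and near-identical copies may be divided wrongly. PCR reads carry no molecular identifiers. Mitochondrially encoded genes were not analysed here.

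Counts were divided by median-of-ratios size factors over the 4 libraries. Log2 ratios are log2 of normalized counts plus 1, miR-93 EV over control EV. The 95% intervals are exact conditional (Clopper-Pearson) intervals of the count ratio. The procedure was tested on simulated counts that held counting error only, with known changes placed in genes of a mean of at least 50. Spread between cultures, the trend with GC content and changes in genes of lower counts were outside that test. The authors' deposited log2 values, centred per gene on the median of the libraries, served as an alternative. Gene IDs were matched to GENCODE M21 (95.3% matched), and the seed search used its longest 3′ UTR per gene. GC correction subtracted a running median of 501 genes. Alternatives were other scalings, count minimums, fold thresholds, a pseudocount of 5 and smaller gene sets.

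Named genes are those past 2-fold with a mean of at least 100 normalized counts, the extreme members of each list with a mean of at least 50, the genes with the largest differences in normalized counts, the extreme genes with at least 2 seed matches, and markers. List members past 1.5-fold and members with a known role were also named, after their values were seen. A few genes that the rule names are not reported here. The members and lists were chosen with earlier results of these data known. Python 3.11.15, numpy 2.4.6, pandas 2.3.3, scipy 1.17.1, matplotlib 3.10.9, R 4.3.3 and edgeR 4.0.16 (TMM scaling only) were used.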

Additional observations from a re-analysis of the deposited data

How the results depend on the processing

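No paired analysis was possible because each group is 1 pooled library and no result comes from a test. The counts of 153 higher and 71 lower genes stayed within 1.5 times with TMM scaling (163 and 64), total read scaling (182 and 58), size factors of the pair alone (154 and 63) and GC-corrected ratios (141 and 73). They became 249 and 40 with upper quartile scaling, 416 and 209 with no minimum count, 27 and 20 with a minimum of 100, 773 and 407 at 1.5-fold, 14 and 4 at 3-fold, 76 and 22 without pseudogenes, small RNAs and unnamed gene models, and 72 and 46 without overlapping genes. A pseudocount of 5 left 103 higher and 43 lower genes. The authors' log2 values, used without the counting interval, gave 532 higher and 359 lower. The fewer genes under a higher minimum or a smaller gene set follow from the genes left out, and the cause of the other shifts was not tested. Upper quartile scaling moved the share of higher members in 20 of 50 lists past its binomial interval. The authors' values did so in 3, total reads in 2 and GC correction in 1. That interval treats the members of a list as independent draws and does not measure counting error. Of 222 named genes with a value, upper quartile scaling moved 71 past their counting intervals, GC correction 59, the authors' values 54, total reads 32, TMM 7 and the pair's size factors 6. Among the named genes past 2-fold, Snora28 reversed, at −0.45 in the authors' values. Cdk8, not past 2-fold, also changed sign there, at 0.29. Of all called genes, 138 of the 153 higher and 58 of the 71 lower had the same sign in the authors' values, and 98 and 49 were at least 2-fold apart there. Genes outside the named set also reversed, such as Tox at −1.29. Counts set the width of each interval, and 126 of the 153 and 51 of the 71 genes had a mean under 100.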
